A study of Mus musculus with 2 samples.

Results

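Fam19a2-rich inhibitory nuclei were examined among sorted nuclei of the spinal prodynorphin (Pdyn) lineage. A nucleus was a member if it held at least 2 UMIs (unique molecular identifiers, 1 per captured RNA molecule) of Fam19a2. It also needed a sum of at least 2 UMIs over the inhibitory genes Gad1, Gad2, Slc32a1 and Slc6a5, 0 of Slc17a6 and Pdyn, under 2 of Gal and under 20 of Alk. This rule found 250 of 7610 nuclei, 139 of 3547 in the injured library and 111 of 4063 in the naive library. The reference was inhibitory nuclei by the same transmitter genes with 0 Fam19a2 UMIs, 1690 in the injured and 1937 in the naive library. Nuclei came from the dorsal lumbar cord (L3-L5) of adult mice, 8 of either sex pooled per library. The injured mice had their left hindpaw incised on postnatal day 3, and the naive mice were littermates given isoflurane alone at that age. All mice of both libraries carried Pdyn-IRES-Cre(+/-) and R26-LSL-Sun1.eGFP(+/-), a fluorescent nuclear-envelope tag that Cre switches on permanently. The sort therefore also kept nuclei in which no Pdyn UMI was counted, as in every member by the rule.

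Fam19a2 encodes a small secreted chemokine-like protein that is made mainly in the nervous system. Inhibitory neurons of the dorsal horn release GABA, glycine or both, and they gate touch, itch and pain signals on their way to projection neurons. Their subtypes are told apart by transcription factors, neuropeptides and receptors. In the mouse cord, Zfhx3 is known to mark early-born neurons, many with long axons, while Nfib and Prox1 are known from later-born local neurons.

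Promoters are shown for 3 genes the comparison turns on: Fam19a2, which defines the members, Nr2f2, a nuclear receptor given as their marker, and Grin2c, the 1 named gene with a motif match. Each runs from 250 bases before to 50 bases after the start listed by RefSeq (GRCm38.p6), 5′ to 3′ on the gene's strand, and capitals mark a motif. The Fam19a2 promoter lies at chr10:123263826-123264125 (plus strand, RefSeq symbol Tafa2), that of Nr2f2 at chr7:70366697-70366996 (minus strand) and that of Grin2c at chr11:115267194-115267493 (minus strand).
Fam19a2: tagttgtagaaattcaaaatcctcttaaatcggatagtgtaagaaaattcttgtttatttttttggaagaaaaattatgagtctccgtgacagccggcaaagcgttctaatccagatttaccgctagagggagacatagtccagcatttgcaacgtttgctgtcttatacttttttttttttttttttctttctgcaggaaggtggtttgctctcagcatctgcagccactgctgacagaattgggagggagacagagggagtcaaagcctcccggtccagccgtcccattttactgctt
Nr2f2: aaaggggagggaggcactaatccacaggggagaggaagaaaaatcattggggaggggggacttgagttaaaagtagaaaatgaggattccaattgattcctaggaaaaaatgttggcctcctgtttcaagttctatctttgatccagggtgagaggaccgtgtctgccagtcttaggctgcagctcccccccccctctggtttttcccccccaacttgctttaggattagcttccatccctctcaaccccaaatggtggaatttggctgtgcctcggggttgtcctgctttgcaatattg
Grin2c: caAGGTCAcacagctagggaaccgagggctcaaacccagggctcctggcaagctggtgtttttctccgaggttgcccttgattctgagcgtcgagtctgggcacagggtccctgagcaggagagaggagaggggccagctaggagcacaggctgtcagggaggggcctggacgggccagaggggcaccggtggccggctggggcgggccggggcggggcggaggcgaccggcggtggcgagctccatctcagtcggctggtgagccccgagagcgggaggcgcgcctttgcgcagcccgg
In all, 2 motifs were searched on both strands: AGGTCA, a nuclear receptor half-site, and then TAATTA, a homeodomain core that reads the same on both strands. On the other strand the half-site reads TGACCT. The motifs do not overlap each other, and TAATTA was added after AGGTCA had been searched. Of the 16 genes named as higher in members, 11 had a promoter in the table, and 0 of these 11 held either motif. Of the 10 named as lower, 9 had one, and AGGTCA was found in 1 of them, Grin2c, and TAATTA in 0. Among all 32817 promoters of that length, 16.3% held AGGTCA and 5.30% held TAATTA. Counted by gene, as the named genes were, 18.1% of 27025 genes held AGGTCA and 6.12% held TAATTA. The absence of a match says only that these letters are not in the window.

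The injured library held 32934588 UMIs and the naive library 30602222, with medians of 8464 and 6955 per nucleus. Only 3 barcode sequences occurred in both libraries. With 1 pooled library per condition, nothing between injured and naive could be tested. Members were deeper than the reference. Their median was 12403 UMIs in the injured and 10442 in the naive library, against 8000.5 and 6789 in reference nuclei. A rule that asks for at least 2 UMIs of a gene favours deep nuclei, so ratios are also given against reference nuclei drawn to the members' depth (134 injured and 110 naive nuclei, medians 12215 and 10380). These were drawn from a restricted reference that also met the limits on Pdyn, Gal and Alk (1021 injured and 1105 naive nuclei).

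Members made up 7.22% of inhibitory nuclei in the injured library (95% Clopper-Pearson interval 6.10 to 8.47%) and 5.15% in the naive library (4.25 to 6.16%). Intervals here cover counting error only, and the deeper library finds more nuclei past a UMI limit, so no difference is read from these shares. Members held a median of 6 Fam19a2 UMIs in the injured library (highest 51) and 4 in the naive library (highest 20). Just inside the limit were 59 members with exactly 2 UMIs, and just outside it were 158 inhibitory nuclei with exactly 1. A further 47 inhibitory nuclei had at least 2 Fam19a2 UMIs and were kept out by Pdyn (27), Gal (23) or Alk (3), some by more than 1 of them.

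The genes of the rule were described and not tested. Levels are in CPM, UMIs scaled to a total of 1000000 for the same nuclei, from counts summed over nuclei. The glycine transporter gene Slc6a5 stood at 209 CPM in injured and 228 CPM in naive members, against 136 and 127 CPM in reference nuclei. It had a UMI in 89.2% of injured and 85.6% of naive members, against 55.5% and 52.1% of reference nuclei. Gad1, which encodes a GABA-synthesising enzyme, stood at 80.8 CPM in injured and 106 CPM in naive members, against 136 and 168 CPM in reference nuclei. Gad2, which encodes the other such enzyme, stood at 153 and 177 CPM in members, against 196 and 193 CPM in reference nuclei, and 142 and 152 CPM in depth-matched ones. A Gad2 UMI was found in 82.7% of injured and 82.0% of naive members, against 78.3% and 72.6% of reference nuclei. Members thus held more Slc6a5 and less Gad1 per UMI than the full reference in both libraries, while the order for Gad2 changed with the reference and the measure. The restricted reference held Slc6a5 at 144 and 149 CPM and Gad1 at 143 and 182.5 CPM. The rule asks for at least 2 UMIs over these same genes, and reference nuclei were shallower. The rule can thus shape these levels, its part was not tested, and no trait of members is read from them.

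Zfhx3, Nr2f2 and Rnf207 were given as markers of these nuclei, so their levels are a description with no test. Zfhx3 (chr8:107942644-108961630, plus strand), a large homeodomain and zinc finger transcription factor, stood at 216 CPM in injured and 187 CPM in naive members, against 34.9 and 29.9 CPM in reference nuclei. A Zfhx3 UMI was found in 71.9% of injured members (63.7 to 79.2%) and 55.0% of naive members (45.2 to 64.4%), against 9.05% and 7.23% of reference nuclei. Thinned to 4000 UMIs per nucleus, these shares were 46.0% and 42.7% in members, against 6.40% and 5.46% in reference nuclei. This left out 0 injured and 1 naive member, and 18 injured and 50 naive reference nuclei. Nuclei with oligodendrocyte markers and no transmitter gene UMI, with median depths of 2774 and 2182 UMIs, had Zfhx3 in 13.7% and 9.09%. Over all its nuclei the reference share was at or below that level, so no expression is read from it, and the share in members was above it. Deep reference nuclei held more Zfhx3, as given further on.

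Nr2f2 (chr7:70351944-70366735, minus strand), also called COUP-TFII, stood at 28.4 CPM in injured and 30.2 CPM in naive members, against 3.91 and 2.64 CPM in reference nuclei. Rnf207 (chr4:152307019-152318993, minus strand), which encodes a RING finger protein known from cardiac muscle, stood at 64.2 and 47.9 CPM in members, against 7.07 and 5.0 CPM in reference nuclei. None of the 3 genes was in every member: Nr2f2 had a UMI in 23.0% of injured and 18.0% of naive members, and Rnf207 in 43.9% and 29.7%. The 3 markers were thus raised on average and did not mark each member. Against the depth-matched reference the log2 ratios of Zfhx3, Nr2f2 and Rnf207 were 0.96, 1.49 and 1.51, and with the full reference 2.59, 3.08 and 3.16.

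Beyond the rule, 1843 of 12570 genes tested were higher in members (14.7%) and 1729 were lower (13.8%). The test was edgeR's quasi-likelihood test on 4 sums, a member sum and a reference sum from each library, with the library as a block and an adjusted p under 0.05. It has 1 residual degree of freedom and borrows its spread across genes. Both libraries gave the same direction for nearly all calls, which a call made over both libraries favours, so no support is read from it. Of the 1843 higher genes, 1840 were higher in the injured and 1834 in the naive library, and 980 were at least 1.5-fold higher in both. Of the 1729 lower genes, 1725 were lower in the injured and 1722 in the naive library. Against the restricted reference, 1355 of 11591 genes were higher (11.7%) and 1352 were lower (11.7%). Against the depth-matched reference, 267 of 7783 genes were higher (3.43%) and 422 were lower (5.42%). The 1495 higher genes tested there had a median log2 ratio of 0.31, against 0.60 for the same genes with the full reference. The 1184 lower genes had -0.43, against -0.60. The sums are also smaller there, and how far depth accounts for the full ratios was not tested.

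Of the 16 genes named as higher, 6 encode transcription factors: Tfap2b, Maf, Lhx1, Pbx3 and the markers Zfhx3 and Nr2f2. Tfap2b (chr1:19208914-19238576, plus strand), an AP-2 factor of early dorsal inhibitory neurons, stood at 23.5 CPM in injured and 26.9 CPM in naive members, against 1.44 and 0.357 CPM in reference nuclei. Its log2 ratio was 4.70 ± 0.36 (SE), with 4.03 in the injured library alone and 6.23 in the naive library alone, where reference nuclei held 5 UMIs. Depth-matched nuclei held it at 6.33 CPM in the injured library and at 0 in the naive library, too few UMIs to test. Tfap2b had 76 of its 102 UMIs in members, so it passed the minimum of 100 UMIs only through them, and its ratio is given as a description. The same holds for Dlk1, Nr2f2 and Kank4 among the named genes, and for 76 of the 1843 higher genes in all (4.12%). Maf (chr8:115682942-115707794, minus strand), a basic leucine zipper factor of deep dorsal horn interneurons, stood at 60.5 and 91.6 CPM in members, against 3.02 and 6.36 CPM in reference nuclei. Its log2 ratio was 4.0 ± 0.19 (SE, adjusted p = 4.876e-95), and 2.70 against the depth-matched reference, as a description. In neither library did the members' and the reference intervals of Tfap2b or Maf overlap. These 2 genes were chosen for their high ratios, so this is given as a description and no support is read from it. Lhx1 (chr11:84518284-84525535, minus strand), a LIM homeodomain factor of dorsal inhibitory neurons, stood at 32.1 and 26.9 CPM in members, against 5.21 and 4.72 CPM in reference nuclei. Its log2 ratio was 2.52 ± 0.25, and 1.37 against the depth-matched reference, as a description. Pbx3 (chr2:34171457-34373142, minus strand), a homeodomain cofactor of Hox proteins, stood at 167 and 160 CPM in members, against 34.7 and 21.9 CPM in reference nuclei. Its log2 ratio was 2.47 ± 0.11, and 0.91 against the depth-matched reference (adjusted p = 3.604e-05).

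**Figure D1:**
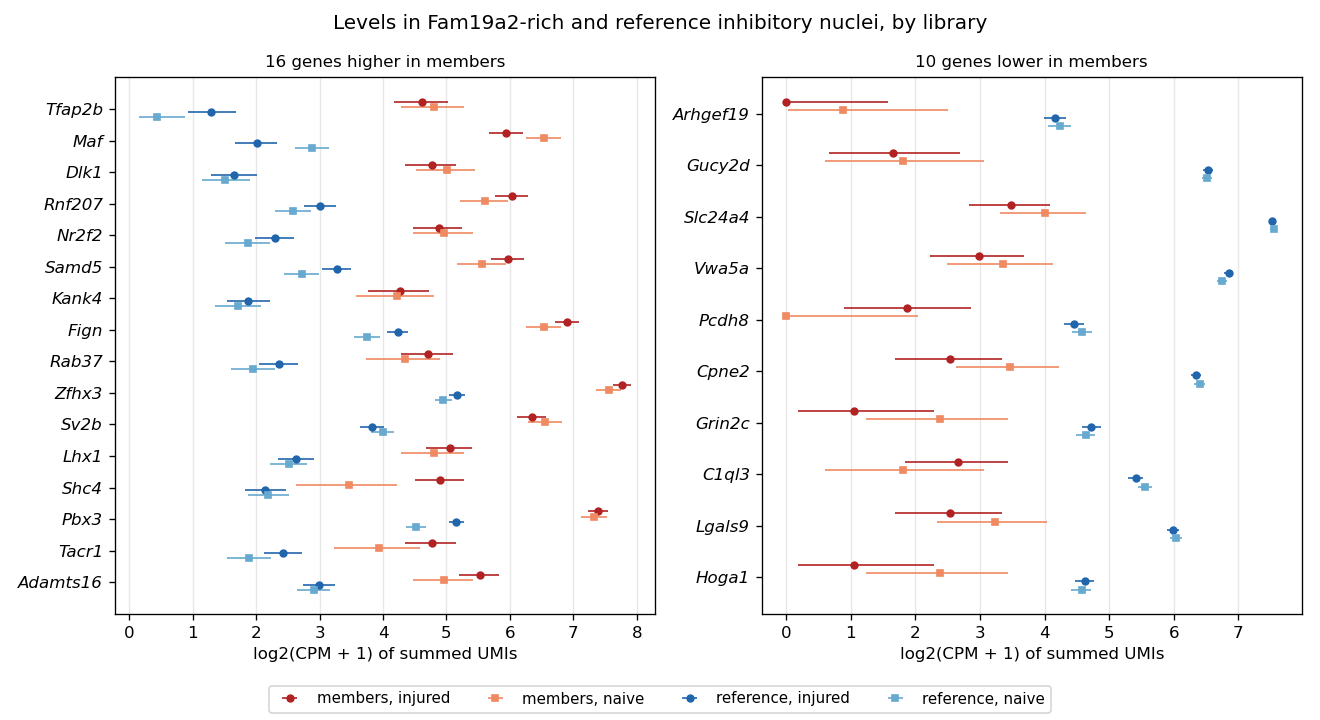
Levels of the 16 genes named as higher (left) and the 10 named as lower (right) in members, as log2(CPM + 1) of summed UMIs, in members and reference nuclei of each library. Bars are 95% Poisson intervals for counting error. Tfap2b stood at 23.5 and 26.9 CPM in members, against 1.44 and 0.357 CPM in reference nuclei.

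The other named genes were of mixed kinds. Dlk1, a membrane protein related to Notch ligands, stood at 26.2 and 31.1 CPM in members, against 2.13 and 1.86 CPM in reference nuclei (log2 ratio 3.77 ± 0.30) and 1.15 and 0 CPM in depth-matched ones. Fign, which encodes the microtubule-severing enzyme fidgetin, stood at 119 and 91.6 CPM in members, against 17.8 and 12.5 CPM in reference nuclei. Fign kept most of its log2 ratio against the depth-matched reference, 2.30 there and 2.74 with the full reference. Nuclei with oligodendrocyte markers held more than members of Fign (188 and 222.5 CPM), Kank4 (43.4 and 59.9 CPM) and Rab37 (77.2 and 51.3 CPM). Pbx3 (198 and 154 CPM) and Shc4 (19.3 and 77.0 CPM) were above members there in 1 library each. The other genes named as higher were below members there in both libraries. The source of these UMIs was not tested. Tacr1, the substance P receptor, stood at 26.2 and 14.3 CPM in members, against 4.39 and 2.72 CPM in reference nuclei (log2 ratio 2.46 ± 0.30). Depth-matched nuclei held more Tacr1, 14.4 and 5.13 CPM, and too few UMIs for a test. Sv2b, a synaptic vesicle glycoprotein, had a log2 ratio of 2.57, and 1.32 against the depth-matched reference. Samd5 had 2.86, and 0.67 against the depth-matched reference. The GTPase gene Rab37 had 2.61, and 0.98 with an adjusted p of 0.0567 there, so its call was lost. Kank4, the adaptor gene Shc4 and the metalloproteinase gene Adamts16 had log2 ratios of 2.79, 2.48 and 2.45. That of Adamts16 was 1.15 against the depth-matched reference, as a description, where Kank4 and Shc4 were too low to test. Shc4 leaned on the injured library, at 28.9 CPM in injured and 10.1 CPM in naive members, against 3.43 and 3.57 CPM in reference nuclei (log2 ratio 3.07 in the injured and 1.5 in the naive library alone).

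Several genes common in the reference were nearly missing from members. Gucy2d, a membrane guanylate cyclase gene, stood at 2.14 and 2.52 CPM in members, against 91.6 and 90.2 CPM in reference nuclei (log2 ratio -5.35 ± 0.27, adjusted p = 1.21e-86). Depth-matched nuclei held less Gucy2d, 23.6 and 22.2 CPM, and too few UMIs for a test. Slc24a4, a sodium, potassium and calcium exchanger, stood at 10.2 and 15.1 CPM in members, against 183 and 186 CPM in reference nuclei. Its log2 ratio was -3.97 ± 0.16, and -3.12 against the depth-matched reference. Vwa5a had -3.87, and -3.08 against the depth-matched reference. The copine gene Cpne2 had -3.61, and -2.72 there. Arhgef19 had 0 UMIs in injured and 1 in naive members, against 17.0 and 17.8 CPM in reference nuclei. A count of 0 allows up to 1.61 CPM in injured members (3 counts). Pcdh8, a protocadherin gene, had 5 UMIs in injured and 0 in naive members, where 0 allows up to 2.52 CPM, against 21.1 and 23.0 CPM in reference nuclei. The fitted ratios of these 2 genes depend on the prior count, and that of Pcdh8 was -2.98 in the injured library alone and that of Arhgef19 -4.41 in the naive library alone. Grin2c, an NMDA receptor subunit, C1ql3, a secreted synaptic protein, the galectin gene Lgals9 and the mitochondrial enzyme gene Hoga1 had log2 ratios of -3.48, -3.40, -3.39 and -3.38. Depth-matched nuclei held less of these genes than the full reference, and too few UMIs for a test. They held Arhgef19 at 6.90 and 5.13 CPM, Pcdh8 at 10.9 and 6.83 CPM and Grin2c at 10.9 and 12.8 CPM. C1ql3 was at 19.6 and 10.25 CPM there, Lgals9 at 25.9 and 28.2 CPM and Hoga1 at 15.0 and 9.40 CPM. Single libraries moved some of these: Grin2c had -4.57 in the injured and -2.51 in the naive library alone, Hoga1 -4.46 and -2.44, and C1ql3 -4.19 in the naive library alone.

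**Figure D2:**
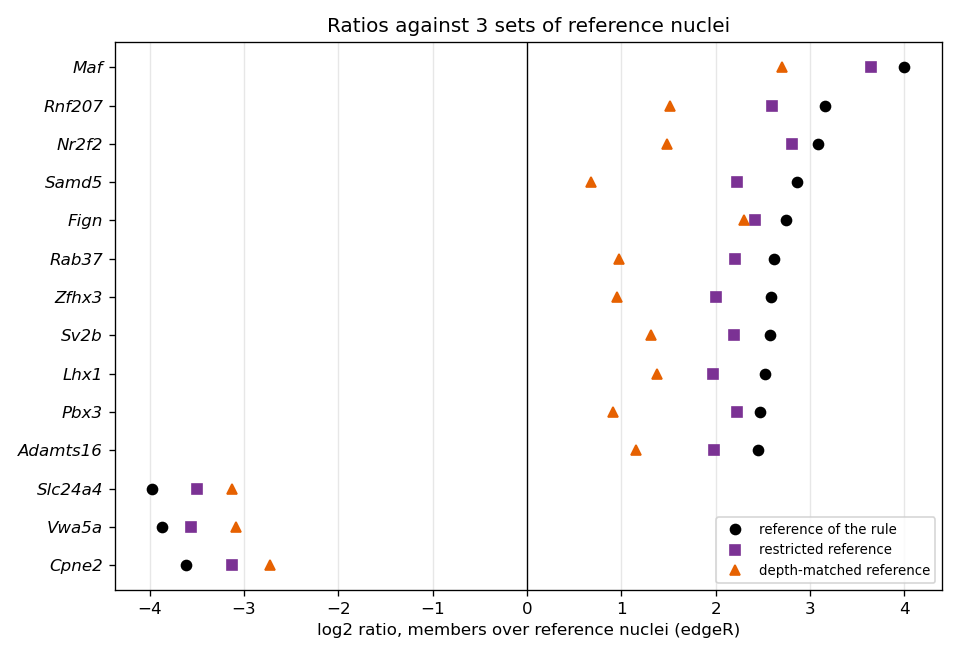
Log2 ratios of members over the reference of the rule (circles), the restricted reference (squares) and the depth-matched reference (triangles), for the named genes tested against all 3. Every ratio kept its direction, and that of Zfhx3 was 2.59, 2.0 and 0.96.

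Depth was also looked at within classes of nuclei, a split chosen after the data were seen. Among nuclei with under 8000 UMIs, Zfhx3 stood at 277 CPM in injured and 302 CPM in naive members, against 25.6 and 25.6 CPM in the restricted reference. Only 13 injured and 29 naive members were that shallow. Among nuclei with at least 12000 UMIs it stood at 183 and 161 CPM in members, against 139 and 130 CPM in the restricted reference. The injured intervals did not overlap (160 to 208 against 122 to 157 CPM), and the naive ones did (130 to 197 against 106.5 to 158 CPM). In the deepest nuclei the Zfhx3 levels of both kinds of nuclei were thus nearer than in shallow ones, and still higher in members. Maf stayed apart there, at 61.3 and 115 CPM in members against 6.30 and 27.9 CPM in the restricted reference. Ebf1, a factor of dorsal neurons, also stayed apart, at 369 and 420 CPM in members against 1327 and 1285 CPM in the restricted reference. In nuclei with under 8000 UMIs, Maf stood at 0 CPM in injured members (interval up to 40.8 CPM) and 21.2 CPM in naive members. The restricted reference held it at 1.56 and 5.04 CPM there.

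Gene lists were counted in the same test, in which 14.7% of all genes were higher and 13.8% lower, or 3.43% and 5.42% against the depth-matched reference. Of 28 dorsal interneuron factors tested, 8 were higher in members and 16 were lower, with a median log2 ratio of -0.70 against 0.00 over all genes. Among the higher ones were Tfap2b, Maf, Lhx1, Pbx3, Casz1, Rora and Meis1. Ebf1 stood at 350 and 548 CPM in members, against 3000 and 2858 CPM in reference nuclei (log2 ratio -2.79 ± 0.09). Rorb, a nuclear receptor of dorsal horn interneurons, stood at 90.4 and 131 CPM in members, against 647 and 517 CPM in reference nuclei (-2.48 ± 0.10). Prdm8, Lbx1, Bhlhe22, Ebf3 and Bcl11b were among the other lower ones. Against the depth-matched reference, 5 of 21 were higher and 9 were lower.

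Of 12 temporal factors, which mark when a spinal neuron was born, 4 were higher and 5 were lower, with the marker Zfhx3 left out. The higher ones were Onecut2, Nfia, Zfhx4 and Nfic. The lower ones were Prox1 (log2 ratio -2.49), Nfix (-2.36), Nfib (-1.75), Neurod2 and Neurod6. Nfia and Nfic belong to the same family as the late factors Nfib and Nfix and moved the other way. Against the depth-matched reference 1 of 9 temporal factors was higher and 3 were lower. Of 25 nuclear receptors, with the marker Nr2f2 left out, 10 were higher, among them Rarb (2.10) and Esrrg (1.93), and 3 were lower. The share that was lower was close to that of all genes. Against the depth-matched reference 3 of 16 nuclear receptors were higher and 1 was lower. Of 4 ventral factors, 2 were higher, Foxp2 among them. Foxp1 was lower by little (log2 ratio -0.27, adjusted p = 0.0448), and its call was lost against the restricted (adjusted p = 0.33) and the depth-matched reference (adjusted p = 0.30). Foxp2 turned round against the depth-matched reference, with a log2 ratio of -0.56 (adjusted p = 0.0317) against 1.43 with the full reference.

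Peptide systems were mostly lower in members. Of 12 neuropeptide genes, Sst and Vgf were higher and 7 were lower, with Cartpt at -3.18 and the nociceptin precursor Pnoc at -2.63. Sst rested on the naive library, at 3.75 CPM in injured and 14.3 CPM in naive members, against 3.43 and 4.29 CPM in reference nuclei. Cartpt had a log2 ratio of -1.67 against the restricted reference, while Pnoc kept -2.41. Of 21 peptide receptors, 4 were higher and 12 were lower. Tacr1, Cckbr, Ntsr1 and Nmbr were higher, and Trhr (-3.16) and Qrfpr (-2.61) were the lowest. Against the depth-matched reference 0 of 8 peptide receptors were higher and 4 were lower, and 1 of 8 neuropeptide genes was higher and 5 were lower. Both tested relatives of Fam19a2 were higher, Fam19a1 (1.52) and Fam19a5 (0.80), and neither passed the test against the depth-matched reference (0.39 and 0.20). Of 10 calcium-binding and nitric oxide genes, 3 were higher, with Pvalb at 1.73, and 4 were lower, with the nitric oxide synthase Nos1 at -2.67. Against the depth-matched reference 0 of 7 were higher and 3 were lower.

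Receptors and channels moved both ways. Of 21 GABA and glycine receptor and transporter genes, 8 were higher and 6 were lower, and against the depth-matched reference 0 of 20 were higher and 6 were lower. The GABA receptor subunit gene Gabrg1 had a log2 ratio of -2.11. Of 17 ionotropic glutamate receptors, 7 were higher and 8 were lower, with the delta receptor Grid1 at 2.09. Of 6 metabotropic glutamate receptors, 3 were higher, with Grm4 at 2.11 and Grm3 at 1.89, and 3 were lower. Of 50 potassium and HCN channel genes, 16 were higher, led by Kcna1 (2.37) and Kcns3 (2.02), and 21 were lower, led by Kcnt2 (-2.79). Against the depth-matched reference 4 of 40 were higher and 13 were lower, Kcna1 and Kcnt2 kept log2 ratios of 1.0 and -1.94, and Kcns3 lost its call (0.39, adjusted p = 0.54). Of 12 sodium channel genes, 5 were higher, led by Scn9a (1.26) and Scn1a (1.17), and 3 were lower. Against the depth-matched reference 3 of 11 sodium channel genes were higher and 1 was lower. For ionotropic glutamate receptors these were 3 and 4 of 16, and for metabotropic ones 1 and 2 of 5. Of 22 calcium channel genes, 4 were higher, led by Cacna2d1 (1.86), and 11 were lower, led by Cacna1h (-2.45). Against the depth-matched reference 1 of 19 was higher and 6 were lower. Some genes higher in members were higher still in nuclei with oligodendrocyte markers. Those nuclei held Kcna1 at 217 and 308 CPM, against 113 and 141 CPM in members. They held Grm3 at 1061 and 1172 CPM, against 354 and 590 CPM, and Cacna2d1 at 135 and 111 CPM, against 34.2 and 42.8 CPM.

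Wiring genes were also divided. Of 46 axon guidance genes, 16 were higher and 19 were lower, and against the depth-matched reference 5 of 35 were higher and 12 were lower. Slit2, a secreted repellent, stood at 432 and 346 CPM in members, against 92.0 and 69.2 CPM in reference nuclei (log2 ratio 2.22, and 1.08 against the depth-matched reference). Robo3, a Slit receptor family member, had a log2 ratio of -3.12. Of 22 cadherins, 11 were higher and 5 were lower, and of 45 synaptic adhesion genes 22 were higher and 15 were lower. Against the depth-matched reference these became 2 and 4 of 20 cadherins, and 5 and 6 of 41 adhesion genes. Pcdh11x kept a log2 ratio of 1.43 there, and Cdh12, at 1.69 with the full reference, had -0.19. Of 17 Hox genes, 3 were higher and 9 were lower, and 0 of 14 passed the test in either direction against the depth-matched reference. Of 10 immediate early genes 0 were higher and 3 were lower, and of 13 heat shock genes 1 was higher and 4 were lower. Against the depth-matched reference, 0 of 2 immediate early and 0 of 11 heat shock genes passed in either direction.

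Members were not uniform. Of 6 genes picked for being high in members (Zfhx3, Maf, Tfap2b, Nr2f2, Rnf207 and Lhx1), at least 1 had a UMI in 89.2% of injured and 83.8% of naive members, and none of the 6 was found in the rest. Maf and Zfhx3 were seldom found together. Maf had a UMI in 11 of 100 injured and 9 of 61 naive members with Zfhx3, against 15 of 39 injured and 25 of 50 naive members without Zfhx3. Other genes went with Zfhx3. Tfap2b had a UMI in 23 of 100 injured and 18 of 61 naive members with Zfhx3, against 1 of 39 and 1 of 50 without it. Lhx1 had a UMI in 41 of 100 and 19 of 61 members with Zfhx3, against 5 of 39 and 3 of 50 without it. Median depths of members with and without Zfhx3 were close, 12180 against 12670 UMIs in the injured and 10490 against 10320 UMIs in the naive library. Dlk1 and Nr2f2 also went together: Nr2f2 was in 52.2% of injured and 47.1% of naive members with Dlk1, against 17.2% and 12.8% of those without it. These counts describe nuclei of 1 library each and were not tested.

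The levels also differed by Fam19a2 count within the inhibitory nuclei that met the limits on Pdyn, Gal and Alk. Over both libraries, Nr2f2 stood at 3.99 CPM in nuclei with 0 Fam19a2 UMIs, 5.35 with 1, 9.42 with 2, 25.2 with 3, 30.9 with 4 to 7 and 40.8 with 8 or more. Within single libraries the order was not steady: injured nuclei had 6.97 CPM with 1 UMI and 5.67 with 2, and naive nuclei 32.9 with 3 and 24.1 with 4 to 7. The intervals of neighbouring classes with at least 1 UMI overlapped within each library. Zfhx3 stood at 49.0, 160, 190, 243, 179 and 228 CPM in the same classes. It was already high in nuclei with 1 UMI, which the rule leaves out, and had no further steady order. Ebf1 stood at 2147, 1329, 625, 391, 408 and 336 CPM. Median depth moved with these classes, from 7441 UMIs in the lowest class to 13600 in the highest, and its part in the order was not tested.

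**Figure D3:**
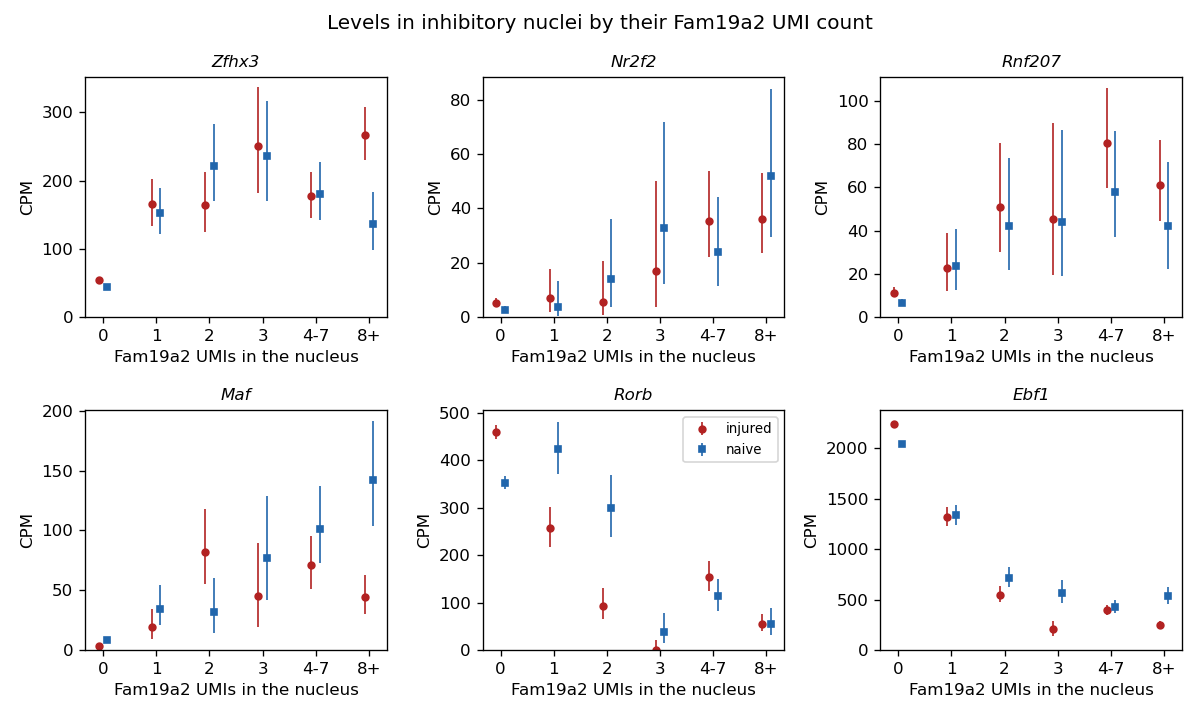
Levels (CPM of summed UMIs) of 6 genes in inhibitory nuclei grouped by their Fam19a2 UMI count, for each library, with 95% Poisson intervals for counting error. Zfhx3 was at 160 CPM in nuclei with 1 UMI and 49.0 CPM in nuclei with 0, over both libraries.

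The same contrast was made in excitatory nuclei, those with at least 2 Slc17a6 UMIs and 0 of the inhibitory genes. There were 237 with at least 2 Fam19a2 UMIs and 640 with 0. In an edgeR fit over 8 sums, the log2 ratio was higher in inhibitory than in excitatory nuclei for 697 genes (5.28% of 13202) and lower for 650 (4.92%). Of the 1843 genes higher in inhibitory members, 388 were also higher in excitatory Fam19a2 nuclei, 21.1% of them against 4.82% of all 13202 genes, and 61.0% of the genes higher in excitatory Fam19a2 nuclei. Both contrasts come from the same 2 libraries, and both ask for at least 2 Fam19a2 UMIs, which favours deep nuclei. No depth-matched excitatory reference was drawn, and the part of depth in this overlap was not tested. Of the 1843, 604 had a ratio that differed between the classes. Of the 26 named genes, the ratio differed for 14. Both sets had been chosen by their ratio in inhibitory nuclei, which enters this difference, so these counts were partly set by that choice. Fign had a log2 ratio of 2.74 in inhibitory and 2.61 in excitatory nuclei, a difference of 0.13 ± 0.23 (SE, adjusted p = 0.82). Zfhx3 had 2.59 and 2.55 in this fit, and Rnf207 had 3.17 and 2.59, given as a description. Maf had 3.96 in inhibitory and 0.07 in excitatory nuclei, a difference of 3.89 ± 0.30 (adjusted p = 1.66e-10). Pbx3 had 2.47 and -0.20, a difference of 2.67 ± 0.15 (adjusted p = 5.038e-13). Excitatory nuclei held Pbx3 at 589 and 548 CPM with Fam19a2, against 656 and 619 CPM without it. For Tfap2b, which had at most 0.771 CPM in excitatory nuclei with Fam19a2, the difference of 4.49 ± 2.12 did not pass the test (adjusted p = 0.225).

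**Figure D4:**
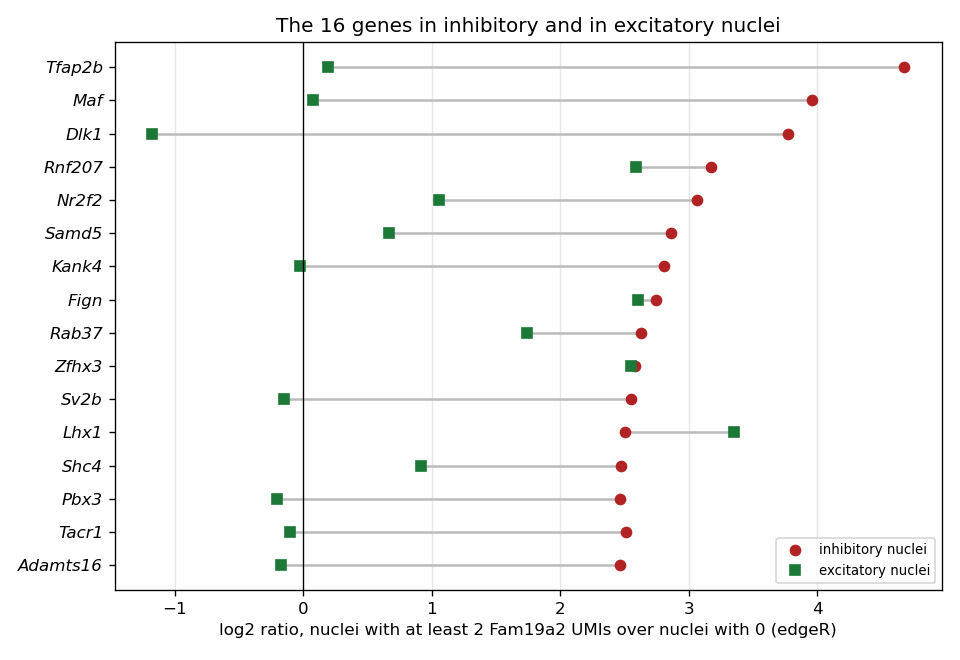
Log2 ratios of nuclei with at least 2 Fam19a2 UMIs over nuclei with 0, in inhibitory (circles) and excitatory nuclei (squares), for the 16 genes named as higher in members. Fign was at 2.74 and 2.61, and Dlk1 at 3.78 and -1.18.

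Markers of other cells were mostly low or lower in members. All 6 oligodendrocyte markers were lower, and their summed level was 131 CPM in injured and 52.1 CPM in naive members, against 258 and 147 CPM in reference nuclei. All 3 markers of CSF-contacting neurons were lower. Nuclei with at least 2 of the 3 were 0.719% of injured and 3.60% of naive members (1 and 4 nuclei), against 2.43% and 3.20% of reference nuclei, so the naive share was not lower in members. The microglia marker P2ry12 was higher, at 78.1 and 87.4 CPM in members against 31.7 and 34.7 CPM in reference nuclei, while Cx3cr1, at 11.8 and 10.1 CPM against 12.8 and 12.9 CPM, did not pass the test. P2ry12 lies on the other strand within Med12l, which was also higher, at 386 and 349 CPM in members against 185 and 177 CPM in reference nuclei. Whether counting used strand is not stated by the sources at hand, so reads of the 2 genes cannot be told apart. The same holds for Lhx1 and its antisense neighbour. Among neuron markers Snap25 was higher (log2 ratio 0.37) and Syt1 (-0.88) and Rbfox3 (-0.41) were lower. Ebf2 and Ebf3, listed as excitatory markers, were both lower. Ebf3 had a UMI in 89.9% of injured and 88.85% of naive reference nuclei, which are inhibitory, so nothing about excitatory nuclei is read from it. Astrocyte Slc1a2 and fibroblast Dcn were lower, and the 1 tested ependymal, precursor and endothelial marker each did not pass. Cholinergic, mural and lymphocyte markers were too low to test, with summed levels of at most 2.52 CPM in members. Since the pools held both sexes, a nucleus with UMIs of Xist and of a Y-linked gene can be a doublet. Such nuclei were 9.35% of injured and 5.41% of naive members, against 5.39% and 4.39% of reference nuclei.

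Injured and naive members were compared by ratios of summed counts with exact conditional binomial intervals. Of 5209 genes with at least 100 UMIs in members, 67 were at least 1.5-fold higher in the injured library (1.29%) and 161 at least 1.5-fold lower (3.09%), with a median log2 ratio of -0.03. The excess of lower genes turned round in other settings, with 29 higher and 16 lower after thinning to 4000 UMIs, and 101 and 41 when both libraries were held to nuclei whose sex-marker UMIs were Y-linked alone, so no balance is read from these counts. The neuropilin gene Nrp2, a guidance receptor, had 96 UMIs (51.4 CPM) in injured and 28 UMIs (23.5 CPM) in naive members, a ratio of 2.18 (1.42 to 3.46), and 0.973 in reference nuclei. Lgr5, a receptor for R-spondins, had 103 CPM in injured and 49.6 CPM in naive members, a ratio of 2.07 (1.54 to 2.83), and 0.807 in reference nuclei. Nell1, a secreted protein gene, had 201 and 103 CPM in members, a ratio of 1.94 (1.58 to 2.40), and 1.07 in reference nuclei. St6gal1, Lrp12, Pde9a, Foxp2, Psmb7, Cep192 and Zfat had ratios of 1.84 to 2.11, and of these St6gal1 (1.44) and Foxp2 (1.40) were also higher in injured reference nuclei.

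Lower in injured members was Napepld, an enzyme of lipid messenger synthesis, at 38.0 CPM in injured and 98.3 CPM in naive members, a ratio of 0.387 (0.284 to 0.524), and 0.947 in reference nuclei. Stac, a channel-binding adaptor, had 61.0 CPM in injured and 139 CPM in naive members, a ratio of 0.440 (0.344 to 0.562), and 1.18 in reference nuclei. The ferritin gene Fth1 had 80.8 and 179 CPM, a ratio of 0.452, and was also lower in reference nuclei, at 0.656. Srp9, Itm2c, Nnat, Higd1a, Dynll2, Ubb and Ccbe1 had ratios of 0.457 to 0.514. In reference nuclei Ubb (0.585), Dynll2 (0.599), Itm2c (0.683), Srp9 (0.777) and Higd1a (0.827) were lower too, while Nnat had 1.25. Of all 5209 genes, 45.6% had a ratio above 1 in members. Among the lists this held for 24 of 30 axon guidance genes, 14 of 19 cadherins, 20 of 33 synaptic adhesion genes, 11 of 16 GABA and glycine receptor genes, 12 of 33 potassium and HCN channel genes and 4 of 16 calcium channel genes. It held for 0 of 9 heat shock genes and 0 of 10 ribosomal protein genes. The median log2 ratio also differed by gene length, with -0.16 in the shortest 1269 of the genes with a known length and 0.06 in the longest 1269, and its part in these lists was not tested. The CSF-contacting markers Pkd1l2 and Myo3b had ratios of 0.260 and 0.367, with 79 of the 81 Pkd1l2 UMIs of naive members in 4 nuclei. Zfhx3 (1.15, interval 0.978 to 1.37) and Fam19a2 (1.03, 0.924 to 1.14) had intervals that included 1, and Maf had 0.660 (0.503 to 0.867) in members and 0.475 in reference nuclei. Mice within a pool could not be told apart, so the spread between animals is unknown.

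**Figure D5:**
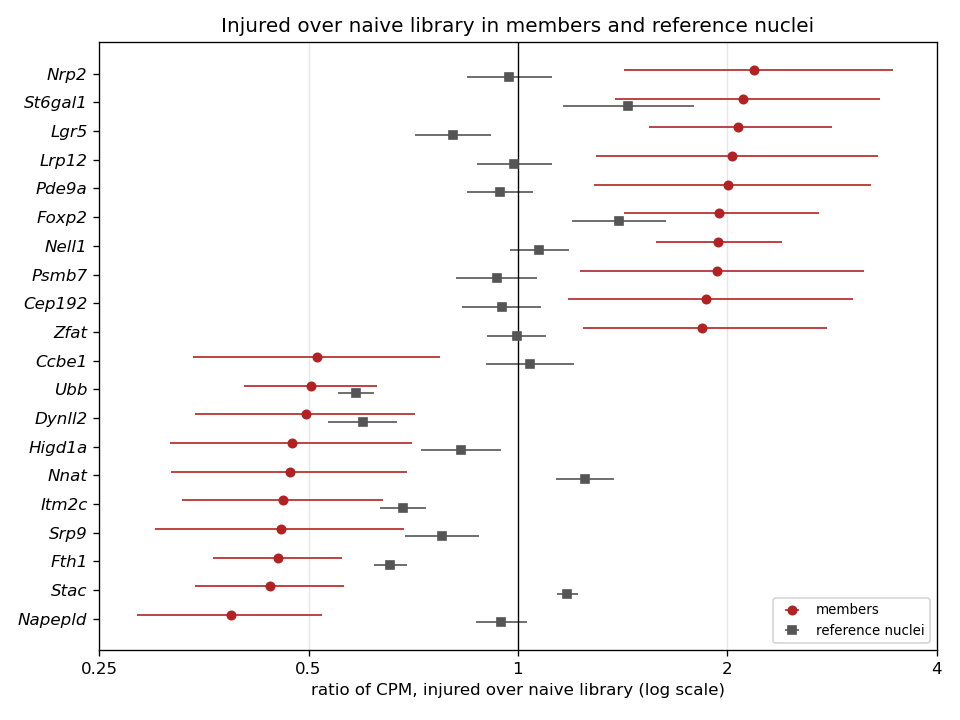
Ratios of CPM in the injured over the naive library, on a log scale, for the 10 highest and 10 lowest named genes, in members (circles) and reference nuclei (squares), with 95% intervals for counting error. Nrp2 was at 2.18 in members and 0.973 in reference nuclei, and Stac at 0.440 and 1.18.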

How the data were processed

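Single-nucleus RNA libraries of sorted Pdyn-lineage nuclei were used, 1 injured and 1 naive, each from 8 pooled mice. The authors deposited raw UMI counts for 19575 genes in 7610 nuclei, made with Cell Ranger 3.0.2 and Seurat on mm10 per the submitters' processing notes. Neither the annotation nor the strand setting nor any filter on nuclei is given in the sources used here. Natural log values the authors deposited equal ln(1 + 10000 × count / total) to within 5.3e-15 over 200 genes checked, and their headers gave each barcode's library. All nuclei were kept, no doublet caller was run and no clustering was done.

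Members, markers and gene lists were chosen with earlier results of these data known. Counts were summed per library and class. Genes with at least 100 UMIs were tested with edgeR 4.0.16 (R 4.3.3), quasi-likelihood, TMM and Benjamini-Hochberg adjustment, with genes of the rule left out of the calls. The 4 sums come from 2 libraries, and the library block takes out the general difference between these pools. P-values therefore rest on how evenly the difference of members and reference held in the 2 pools, with the spread borrowed across genes. The 2 pools also differ in injury. The p-values do not measure the spread between mice. DESeq2 1.42.0 was an alternative. Scripts were tested on simulated data. Intervals are exact (Poisson, Clopper-Pearson, conditional binomial) at 95% and cover counting error only.

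Named genes were the 16 highest and 10 lowest log2 ratios among called genes with one direction in each library, found in at least 10% of members (higher) or reference nuclei (lower) of each. The ranking skipped predicted, mitochondrial, ribosomal, X-inactivation and Y-linked genes. Up to 2 highest and 2 lowest members of each list could be named, and others named from the lists were chosen after their values were seen, as was Med12l. For injured over naive, the 10 highest and 10 lowest ratios were named, if nuclei with Xist alone and nuclei with Y-linked UMIs alone gave 1 direction. Positions are from GENCODE vM21 (GRCm38), which matched 12174 of 12578 genes, and promoters from RefSeq. Depth classes, the second promoter motif, the limit of 10 UMIs for oligodendrocyte-marker nuclei and the setting without CSF-contacting nuclei were chosen after seeing the data. Some genes of the lists are not reported here.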

Additional observations from a re-analysis of the deposited data

Results flagged for a closer look

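The ratio of Fam19a2-rich over Fam19a2-negative nuclei differed between inhibitory and excitatory nuclei, by the edgeR interaction test, for 14 of the 26 named genes. Over all 13202 genes, 5.28% passed with a higher and 4.92% with a lower inhibitory ratio. The named genes had been picked for extreme ratios in inhibitory nuclei, which enter this difference, so the count was partly set by that choice. On the log2 scale, inhibitory minus excitatory, the difference was 4.95 for Dlk1, 3.89 for Maf, 2.83 for Kank4, 2.70 for Sv2b, 2.67 for Pbx3 and 2.64 for Adamts16. It was 2.62 for Tacr1, 2.19 for Samd5 and 1.56 for Shc4. It was -2.40 for Cpne2, -3.03 for Slc24a4, -3.04 for C1ql3, -3.21 for Vwa5a and -3.44 for Pcdh8. The differences for Tfap2b (4.49), Gucy2d (-4.26), Grin2c (-3.67) and Arhgef19 (-3.385) did not pass the test, though each was wider than several that did. Dlk1 was higher with Fam19a2 in inhibitory nuclei (3.78) and lower in excitatory nuclei (-1.18, adjusted p = 0.000494). Excitatory nuclei with Fam19a2 held 13.9 and 21.6 CPM of Dlk1 in the injured and naive library, against 33.1 and 44.9 CPM in those without. The difference for Pcdh8 did not pass when all nuclei were limited on Pdyn, Gal and Alk (-2.90).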

How the results depend on the processing

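No ranked gene of members over reference or of injured over naive reversed its direction under the settings run, while the list genes Foxp2 and Cdh12 did against the depth-matched reference, as given above. The balance of counts did turn round: more genes were lower than higher with no filter on low counts (1606 higher and 1995 lower), with the depth-matched reference and with at least 5 inhibitory UMIs, and more were higher than lower between injured and naive members after thinning, in nuclei with only Y-linked UMIs and with the deepest 10% left out (82 and 68). Against 1843 genes higher and 1729 lower in members, DESeq2's Wald test gave 663 and 608, at least 5 inhibitory UMIs 959 and 1017, and thinning to 4000 UMIs before the rule 431 and 424. The depth-matched reference gave 267 and 422, nuclei with only Y-linked UMIs 468 and 468, and leaving out the 10% of nuclei with most UMIs 948 and 921. The cause was not tested, though each but DESeq2 also has fewer nuclei. By ratios in 1 library at a time, 1834 to 1840 of the higher and 1722 to 1725 of the lower genes kept their direction, which the call over both libraries favours. A fit with no replicate block (no library term) gave 1313 and 1221. Without nuclei with CSF-contacting markers, a setting added after seeing the data, the counts were 1814 and 1725, and 73 and 163 genes past 1.5-fold between injured and naive members.

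Against 67 genes at least 1.5-fold higher in injured members, at least 4 Fam19a2 UMIs gave 103, genes with at least 300 UMIs 11, thinning 29 and nuclei with only Y-linked UMIs 101. Against 161 lower, genes with at least 300 UMIs gave 17, thinning 16, nuclei with only Y-linked UMIs 41 and leaving out the deepest 10% 68. With all nuclei limited on Pdyn, Gal and Alk, the inhibitory and excitatory ratios differed for 387 genes higher and 396 lower, against 697 and 650. Under that setting the inhibitory minus excitatory difference turned to -0.36 for Zfhx3 and 0.076 for Lhx1, which did not pass the test in either fit, and Shc4 lost its call (1.46). Of 361 single-gene values of members over reference, 343 stayed the same, 14 moved and 4 lost their call. Those 4 were Rab37, Pcdh8 under 2 settings and Grin2c. Only 16 naive members had Y-linked UMIs alone, so that setting rests on few nuclei.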
